A study of Homo sapiens with 8 samples.

Results

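The genes SLBP, NPAT, CASP8AP2, LSM10, LSM11, SYMPK, CPSF2, CPSF3 and CSTF2 encode factors that transcribe the replication-dependent histone genes or cut their pre-mRNA. They were taken as a named set, chosen with the higher histone transcripts of sponge cells known and without a threshold on their own signals, with every array probe whose accession maps to one of them. This gave 12 probes for 9 genes, out of 41000 probes and 16557 genes with a named probe. NPAT, LSM11 and CPSF2 had 2 probes each and the others had 1. After the filters on detection and dye agreement 11 of the 12 probes were kept, at least 1 for every gene. The probe that was not kept is the second CPSF2 probe.

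Replication-dependent histone mRNAs are made in S phase and end in a conserved stem-loop in place of a poly(A) tail. NPAT, a substrate of cyclin E and CDK2, switches on the histone genes in a nuclear compartment called the histone locus body, where CASP8AP2 (also called FLASH) is a scaffold that binds LSM11 of the U7 snRNP. SLBP holds the stem-loop, U7 with LSM10 and LSM11 pairs with the pre-mRNA downstream of it, and SYMPK, CPSF2, the nuclease CPSF3 and CSTF2, which also serve in cleavage and polyadenylation, form or bind the cleavage complex. The mRNAs of all these factors are themselves polyadenylated and could be bound by microRNA complexes like any other.

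The study measured L1236, a Hodgkin lymphoma cell line with high miR-155, transduced with the empty retroviral vector pMSCV-PIG (EV cells) or with the same vector carrying a miR-155 sponge (sponge cells). Both populations carry the vector and its GFP marker, were sorted on GFP, and stand for 1 transduced line each. From each, total RNA of the lysate (T) and RNA precipitated with an anti-Argonaute 2 antibody (IP) were labelled with Cy3 and with Cy5, so that 4 two-colour arrays hold 8 channels and the IP and T of 1 population share an array. EV and sponge RNA never shared an array, and array and population cannot be told apart. A precipitation with a control antibody was not analysed here.

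The sponge transcript holds repeated binding sites for miR-155, which compete with its natural targets. The mature microRNA is shown because the sponge, which separates the 2 cell populations, was built to bind it. Its seed, bases 2 to 8 from the 5′ end, is in capitals, and RefSeq places it at chr21:25573983-25574006 on the plus strand of GRCh38.p14. Sites for this seed in the 9 transcripts were not analysed here.
hsa-miR-155-5p: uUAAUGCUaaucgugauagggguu

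Each of the 4 groups holds 1 RNA sample, so no difference could be put to a test, and p-values are not given. In what follows ± is the SD over both dyes where T or IP is compared between populations, and over the 2 dye orientations (IP in Cy3 with T in Cy5, or the reverse) for an IP/T ratio. It covers labelling and hybridisation and leaves out cultures and precipitations. In such bulk RNA, fewer cells of a type and less RNA per cell cannot be told apart. Sponge T in Cy5 stood apart, with 54.1% of its spots clearly over background where the other 7 channels had 61.0% to 65.7%, and each member's change in T is given per dye.

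Of 10 markers of Hodgkin and B-cell lines 9 were well above background in all 8 channels, and PAX5, which such lines carry at low level, was in 7. CD3D and CD3G of T cells, LYZ and MPO of myeloid cells and EPCAM and COL1A2 of epithelial and stromal cells were in none, while CD3E, CD14, CSF1R and KRT8 were in all 8. The summed signal of the Hodgkin and B-cell markers was 247893 to 281335 in EV T and 313095 to 330858 in sponge T, without overlap, and its part in the results was not tested. Gene by gene this list was mixed, with 5 of 10 higher in sponge T in both dyes and 4 lower in both. The median change was 0.11 ± 0.12 log2 units, and changes ran from -0.62 for MIR155HG to 0.34 for CCL17. The summed signal of the 4 T cell, 4 myeloid and 3 epithelial and stromal markers with a probe overlapped between EV T and sponge T. In IP, the Hodgkin and B-cell sum was 211593 to 240437 in EV cells and 261539 to 272560 in sponge cells, and the myeloid sum was 1420 to 1478 in EV cells and 1004 to 1133 in sponge cells, both without overlap, and their part in the IP values below was not tested. By gene, 5 of the 10 Hodgkin and B-cell markers were higher in sponge IP in both dyes and 3 lower in both. Each range above spans the 2 dye channels of 1 RNA sample. How many of all kept probes have ranges that do not overlap was not analysed here. Between populations 62.1% of them in T and 73.6% in IP changed with 1 sign in both dyes.

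The first comparison asked how the mRNAs of the histone factors were divided between Ago2 and the total fraction. NPAT and 1 of the LSM11 probes were enriched in the IP, LSM10 and SYMPK were depleted from it, and SLBP, CPSF2, CPSF3 and CSTF2 lay below 1 by less than 2-fold. In EV cells the mean IP/T of 3 kept probes was 2 or more with the same sign in both orientations, beside 17.5% of all 22470 kept probes, and 2 had a ratio of at most 1/2, beside 19%. The same probes passed in sponge cells, beside 17.5% and 17.8%. A ratio with 1 sign in both orientations was common, at 89.1% of all kept probes with EV and 86.4% with the sponge. How many of them have T and IP channels that do not overlap was not analysed here. Such separation, given by gene below, is therefore not read as a mark of a strong ratio. Over the kept member probes the median log2 IP/T was -0.55 ± 0.07 with EV and -0.30 ± 0.12 with the sponge, where the medians over all kept probes were -0.16 and -0.13. With 1 probe a gene the member medians were -0.56 ± 0.04 and -0.61 ± 0.04, so that no direction between the populations is read from them. The depleted probes numbered 2 under every normalisation tried, but the enriched ones in EV cells numbered 1 after normexp with loess and Aquantile and 0 after normexp with quantile normalisation, their ratios keeping their sign.

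NPAT, the transcriptional coactivator, was enriched by both of its probes. Probe A_23_P203013 had log2 normalised signals in Cy3 and Cy5 of 7.60 and 7.55 in EV T, 9.49 and 9.41 in EV IP, 7.56 and 7.23 in sponge T, and 9.35 and 9.40 in sponge IP. Every IP channel was above every T channel in both populations. The log2 IP/T of NPAT at this probe was 1.87 ± 0.09 in EV cells, a 3.66-fold ratio, and 1.98 ± 0.20 in sponge cells. Its EV ratio was above that of 93.1% of the kept probes.

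The second NPAT probe, A_24_P273823, had 10.13 and 9.55 in EV T, 11.47 and 11.31 in EV IP, 9.75 and 9.13 in sponge T, and 11.36 and 11.17 in sponge IP. Again no IP channel reached down to a T channel, but in both T samples Cy3 was brighter than Cy5, by 1.5-fold in EV and 1.54-fold in sponge cells. The NPAT log2 IP/T ratio at A_24_P273823 was therefore 1.92 with IP in Cy3 and 1.18 with IP in Cy5 in EV cells, and 2.23 and 1.42 in sponge cells. The probes of NPAT differed from each other by 0.32 ± 0.43 in EV cells, less than the spread between orientations.

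LSM11, the Sm-like protein found only in U7, gave different ratios at its 2 probes. At A_23_P368195 the log2 signals were 6.89 in both dyes of EV T, 9.50 and 9.28 in EV IP, 7.05 and 6.05 in sponge T, and 9.31 and 9.37 in sponge IP. The Cy5 channel of sponge T was not well above background there, while the other 7 channels were. The LSM11 log2 IP/T at A_23_P368195 was 2.50 ± 0.16 in EV cells, 5.64-fold and the highest mean among the kept member probes, and 2.79 ± 0.66 in sponge cells. This enrichment was above that of 96.7% of the kept probes in EV cells, but after normexp, loess and Aquantile it was 0.96, below the 1.17 of NPAT A_24_P273823.

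The other LSM11 probe, A_32_P46526, had 10.10 and 10.12 in EV T, 10.33 in both dyes of EV IP, 10.25 and 10.37 in sponge T, and 10.504 and 10.594 in sponge IP. Its channels lay within a narrow band, with IP above T in both populations. At A_32_P46526 the log2 IP/T ratio of LSM11 came to 0.22 ± 0.01 in EV cells and 0.24 ± 0.15 with the sponge. The probes of LSM11 thus differed by 2.28 ± 0.17 in EV cells and by 2.55 ± 0.81 in sponge cells, the latter with the dim Cy5 channel of sponge T in it. After normexp, loess and Aquantile the LSM11 probes stood closer, at 0.96 for A_23_P368195 and 0.29 for A_32_P46526 in EV cells and at 0.72 and 0.23 in sponge cells. Which transcript forms each probe reads was not analysed here, since the probe sequences were not at hand.

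LSM10, the partner of LSM11 in the U7 ring, was depleted from the IP. Probe A_24_P216681 had 13.65 and 13.29 in EV T, 11.95 and 11.77 in EV IP, 13.49 and 13.12 in sponge T, and 12.088 and 11.996 in sponge IP. All 4 T channels were above all 4 IP channels, a separation that was not compared with that of other kept probes. The log2 IP/T of LSM10 was -1.61 ± 0.38 in EV cells, a T signal 3.05-fold that of the IP, and -1.26 ± 0.33 in sponge cells, and 4.37% of the kept probes had a lower ratio in EV cells.

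SYMPK, the scaffold of the cleavage complex, had the lowest mean IP/T of the kept member probes in EV cells, though with IP in Cy5 (-1.88 against -1.85) and after normexp, loess and Aquantile (-1.27 against -1.13) LSM10 was lower. Probe A_23_P78808 had 11.58 in both dyes of EV T, 9.90 and 9.73 in EV IP, 11.73 and 12.06 in sponge T, and 9.87 and 9.94 in sponge IP. Here too the T channels stood above the IP channels without overlap. The log2 IP/T ratio of SYMPK came to -1.76 ± 0.12 in EV cells, with T 3.39-fold the IP signal, and to -1.99 ± 0.28 with the sponge, with 2.69% of the kept probes lower in EV cells.

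The other subunits of the cleavage complex were below 1 in IP/T by smaller steps. CPSF3 (A_23_P28688), the nuclease, had 12.38 in both dyes of EV T and 11.44 in both of EV IP, for a log2 IP/T of -0.94 ± 0.006, and -0.68 ± 0.09 in sponge cells. CSTF2 (A_23_P148372), which binds RNA downstream of the cleavage site in polyadenylation, had -0.82 ± 0.03 in EV cells and -0.64 ± 0.03 in sponge cells. CPSF2 (A_23_P99837), the partner of CPSF3, had -0.55 ± 0.08 in EV cells and -0.61 ± 0.04 in sponge cells. In each of these 3 genes both T channels of a population were above both of its IP channels.

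The second CPSF2 probe, A_24_P82074, was well above background in 2 of 8 channels only, the Cy3 channels of EV IP and sponge IP, with log2 signals of 5.45 and 5.62. Its T signals, 5.52 and 5.22 in EV and 4.86 and 3.91 in sponge cells, were not well above background. With 1 of 2 IP channels and 0 of 2 T channels measured in each population, no IP/T ratio and no change between populations is given for CPSF2 at A_24_P82074.

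The remaining members were SLBP, the stem-loop binding protein, somewhat lower in the IP, and CASP8AP2, divided about evenly. SLBP (A_23_P7101) had 13.33 and 13.45 in EV T, 12.86 and 12.79 in EV IP, 13.23 and 13.19 in sponge T, and 12.93 and 12.89 in sponge IP. On the log2 scale SLBP had an IP/T ratio of -0.56 ± 0.03 with EV and -0.30 ± 0.06 with the sponge, with T above IP in every dye. CASP8AP2 (A_23_P58898) had 8.50 and 8.18 in EV T, 8.30 and 8.34 in EV IP, 8.62 and 7.66 in sponge T, and 8.14 and 8.20 in sponge IP. The T and IP channels of CASP8AP2 overlapped in both populations, and the log2 ratios were -0.020 ± 0.20 with EV and 0.031 ± 0.64 with the sponge.

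**Figure D1:**
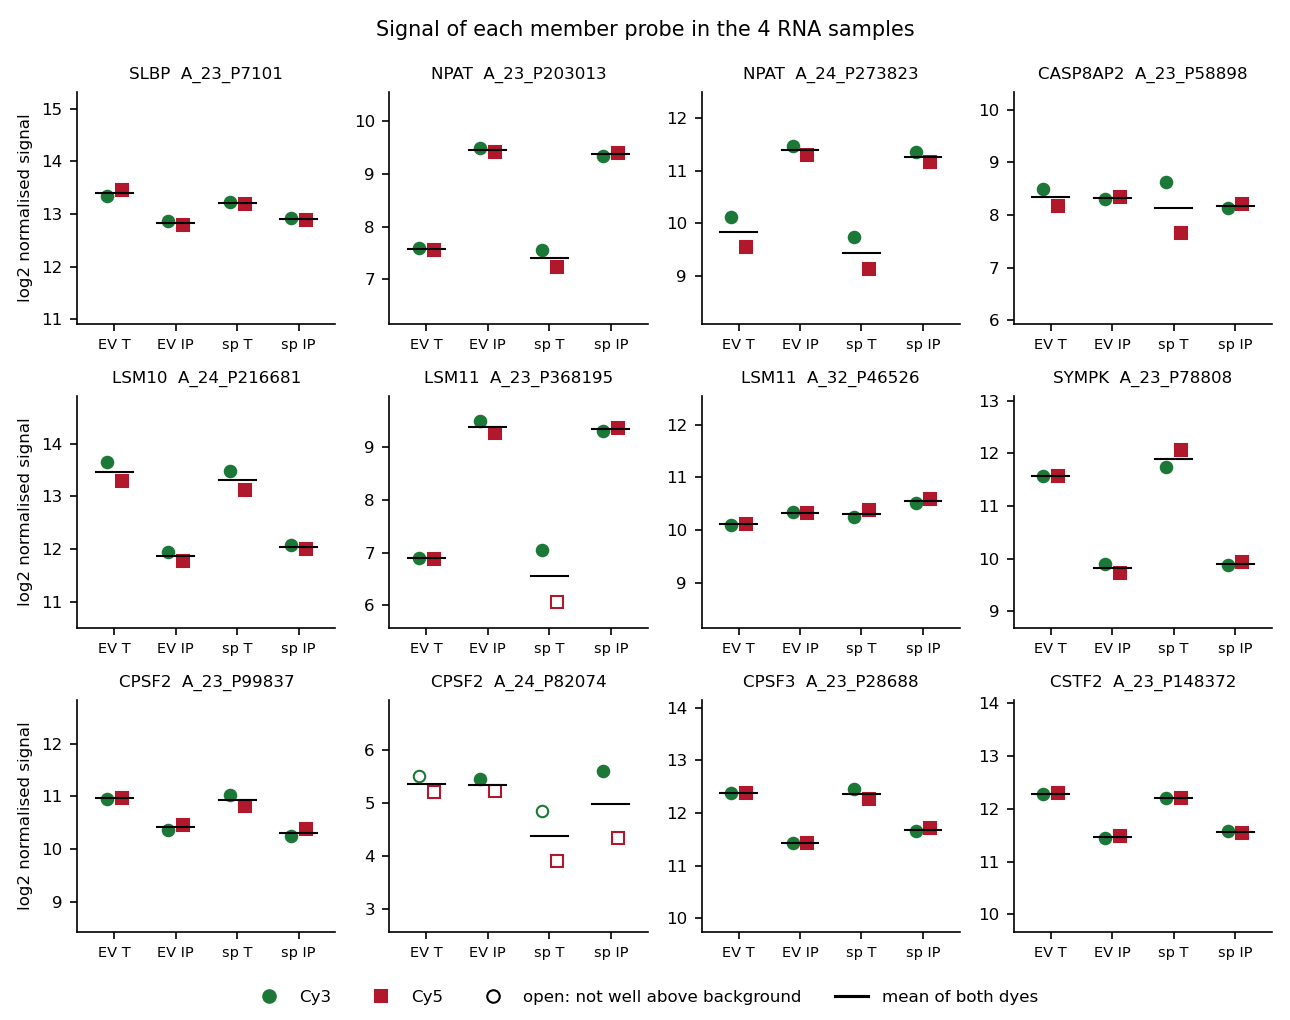
Log2 normalised signal (vertical axis, which spans the same number of log2 units in every panel) of each of the 12 member probes in EV T, EV IP, sponge (sp) T and sponge IP. Circles are Cy3, squares are Cy5, open symbols are not well above background and bars are means of both dyes. Both NPAT probes and LSM11 A_23_P368195 are higher in IP, LSM10 and SYMPK are higher in T.

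**Figure D2:**
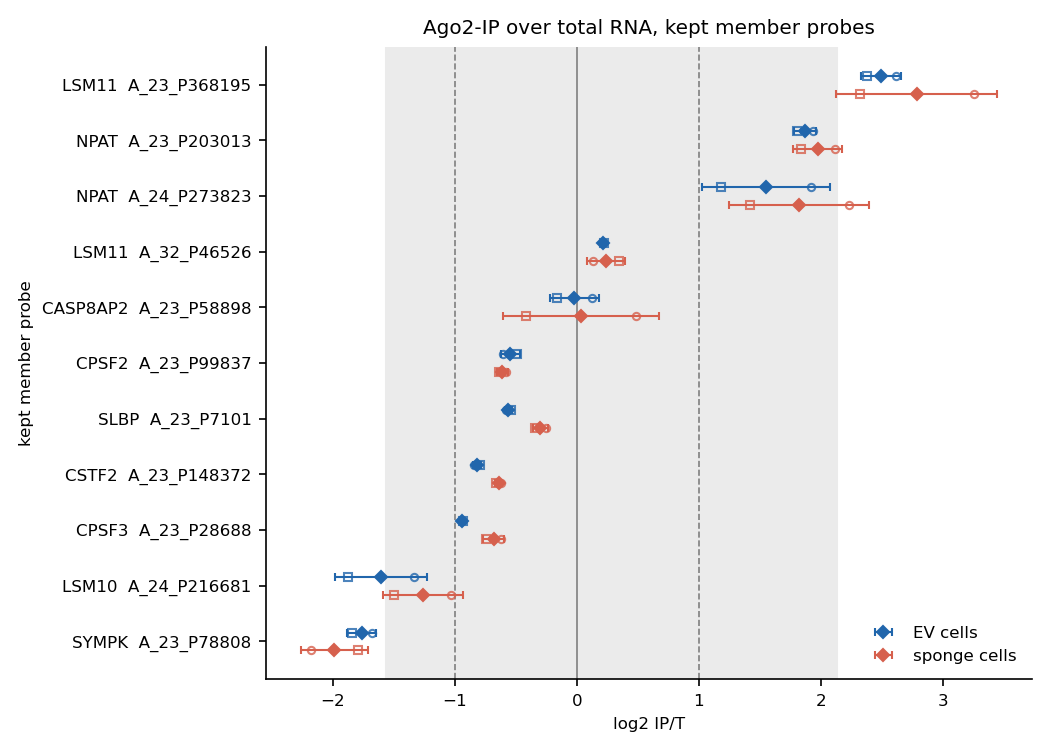
Log2 IP/T of the 11 kept member probes in EV cells (blue) and sponge cells (red). Diamonds are means, error bars the SD over 2 dye orientations, circles the orientation with IP in Cy3 and squares that with IP in Cy5. Dashed lines mark 2-fold, and the grey band runs from the 5th to the 95th percentile of all kept probes in EV cells, -1.57 to 2.13. LSM11 A_23_P368195 lies above the band and LSM10 and SYMPK lie below it in EV cells.

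The second comparison asked whether the factors differed in total RNA between sponge and EV cells, where histone transcripts were higher in sponge cells. No kept member probe differed by 2-fold, beside 0.151% of kept probes higher and 0.258% lower. One probe, NPAT A_24_P273823, was lower in sponge T by at least 0.32 log2 units in the mean with the same sign in both dyes, the smaller of 2 steps used for changes, beside 6.93% of all kept probes, and 0 were as much higher, beside 6.44%. In both dyes 2 member probes were higher, 5 were lower and 4 had opposite signs, where 62.1% of the kept probes had 1 sign in both dyes. The median change was -0.17 ± 0.18 log2 units over the member probes and -0.015 over all kept probes. By dye, the member median was 0.072 in Cy3 and -0.18 in Cy5, the dye in which sponge T stood apart, so its sign is not settled.

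The NPAT probe A_24_P273823 changed by -0.38 in Cy3 and -0.42 in Cy5, a mean of -0.40 ± 0.03 or a 1.32-fold lower signal, with 4.63% of the kept probes lower. After normexp background correction with loess and Aquantile normalisation the NPAT change at A_24_P273823 was -0.091. At NPAT's other probe, A_23_P203013, the change was -0.037 in Cy3 and -0.32 in Cy5, with a mean of -0.18 ± 0.20. Both probes of the gene were thus lower in both dyes, and only A_24_P273823 had a change beyond its spread. After normexp, loess and Aquantile the change at A_23_P203013 was 0.036 ± 0.11, no longer lower.

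SYMPK (A_23_P78808) was the most increased member, with 0.16 in Cy3, 0.48 in Cy5 and a mean of 0.32 ± 0.23. At 0.316 this mean lies just under the step, which is 0.322 to 3 decimals. LSM11 at A_32_P46526 was higher by 0.14 and 0.25, a mean of 0.20 ± 0.08, with all channels well above background. At LSM11's A_23_P368195 the change was 0.16 in Cy3 and -0.83 in Cy5, a mean of -0.34 ± 0.70 that rests on the dim Cy5 channel.

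SLBP was lower by -0.10 in Cy3 and -0.26 in Cy5, with a mean of -0.18 ± 0.11. LSM10 changed by -0.16 and -0.18, a mean of -0.17 ± 0.01, and CSTF2 by -0.077 and -0.087, a mean of -0.082 ± 0.007. These 3 genes were lower in both dyes, by at most 1.13-fold in the mean. CASP8AP2 changed by 0.12 in Cy3 and -0.52 in Cy5, CPSF2 (A_23_P99837) by 0.072 and -0.15, and CPSF3 by 0.087 and -0.11. None of the last 3 kept its sign across dyes. Sponge T of CASP8AP2 differed 1.96-fold between dyes and that of LSM11 A_23_P368195 differed 2.00-fold, both at the edge of the 2-fold limit of the dye filter.

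In the Ago2-IP, 0 member probes reached the step of 0.32 log2 units in either direction, beside 5.99% of kept probes higher and 5.26% lower, and 0 reached a 2-fold change, beside 0.0846% and 0.0668%. The largest changes in IP were higher ones, with 0.25 ± 0.05 for CPSF3 (0.21 in Cy3 and 0.28 in Cy5), 0.22 ± 0.07 for LSM11 A_32_P46526 and 0.18 ± 0.06 for LSM10. Those 3 were higher in both dyes. SLBP had 0.082 ± 0.020 and CSTF2 0.097 ± 0.058, while SYMPK had 0.092 ± 0.17 with opposite signs in the dyes. Lower values were seen for CASP8AP2, with -0.15 ± 0.02, for NPAT A_24_P273823, with -0.12 ± 0.02, for CPSF2 A_23_P99837, with -0.10 ± 0.03, and for NPAT A_23_P203013, with -0.075 ± 0.091. The remaining LSM11 probe, A_23_P368195, had -0.050 ± 0.20. The median over the kept member probes was 0.082 ± 0.085 against 0.0062 over all kept probes, and it was -0.026 in Cy3 alone.

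The ratio IP/T was compared between sponge and EV cells last. A transcript held on Ago2 by miR-155 would have a lower ratio in sponge cells if the sponge took up the microRNA. The paper proposes that its sponge left part of the abundant miR-155 of such lines free. A ratio that was not lower therefore does not show that a transcript is not bound by miR-155. No member probe had an IP/T ratio lower by that step with the same sign in both orientations, beside 6.32% of kept probes. LSM10 alone was higher by at least that much, with 0.31 and 0.38 in the orientations and a mean of 0.34 ± 0.05, beside 8.95% of kept probes. No member passed 2-fold, beside 0.174% higher and 0.138% lower. In all, 6 of 11 probes were higher in both orientations and 0 were lower in both. Of all kept probes 64.0% had 1 sign in both, higher and lower pooled, and the share higher in both was not analysed here. Among these 6 member probes LSM10 was followed by NPAT A_24_P273823 (0.27 ± 0.05), SLBP (0.26 ± 0.09), CPSF3 (0.26 ± 0.09), CSTF2 (0.18 ± 0.07) and NPAT A_23_P203013 (0.10 ± 0.11). The other 5 changed sign between orientations, SYMPK with a mean of -0.22 ± 0.39 among them. The median over the kept member probes was 0.18 ± 0.13, against 0.017 over all kept probes, and in Cy3 alone it was 0.028. After normexp, with either further normalisation, 0 probes passed the step upward. With loess and Aquantile the NPAT changes in IP/T turned negative, -0.066 ± 0.04 at A_24_P273823 and -0.19 ± 0.03 at A_23_P203013. Those of LSM10, SLBP, CPSF3 and CSTF2 stayed positive, at 0.22, 0.15, 0.13 and 0.093.

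**Figure D3:**
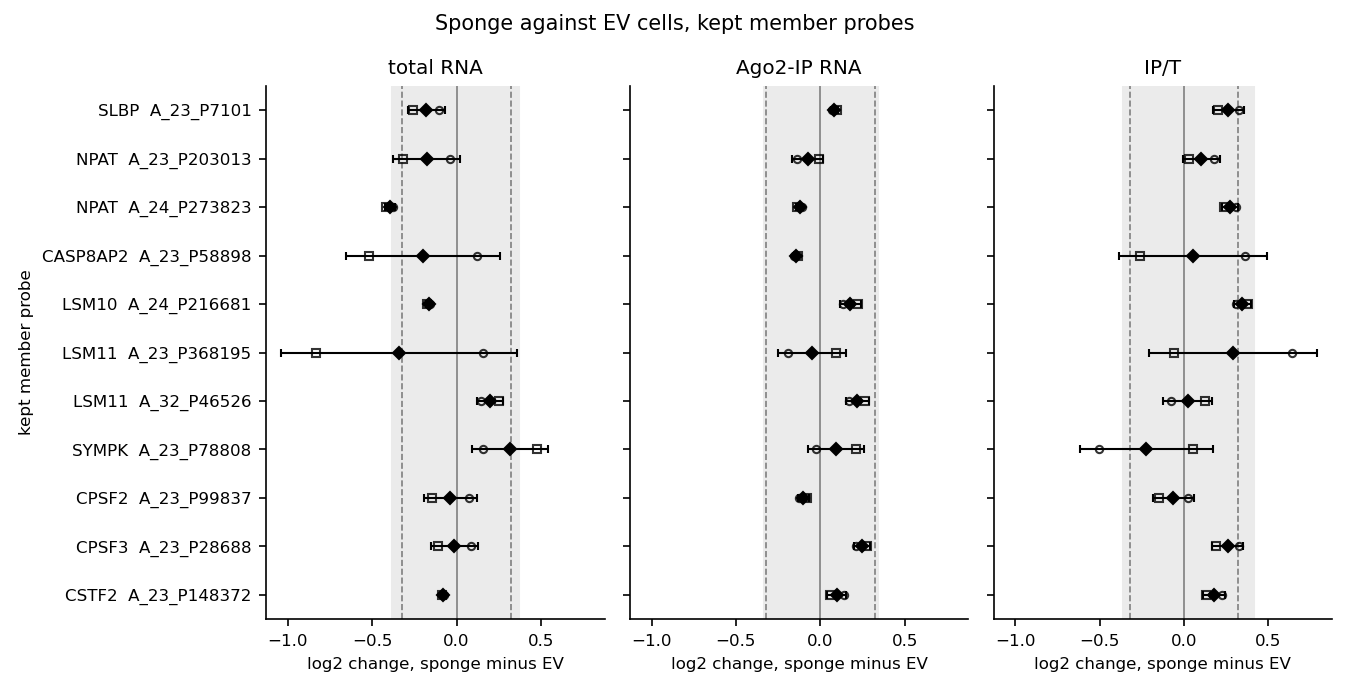
Change from EV to sponge cells on the log2 scale in T, in IP and in IP/T for the 11 kept member probes. Diamonds are means and error bars the SD over 2 dyes (T, IP) or 2 orientations (IP/T), with circles for Cy3 or for IP in Cy3 and squares for Cy5 or for IP in Cy5. Dashed lines mark the step of 0.32 log2 units either way and grey bands the 5th to 95th percentile of all kept probes, which for T are -0.38 and 0.37. Only NPAT A_24_P273823 lies past a dashed line in T with both dyes on 1 side and a mean outside the band.

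The histone transcripts themselves were set beside their factors. Of 68 replication-dependent histone genes 62 had a probe and 58 a kept one, taken at the probe of highest mean signal. In sponge T 26 of the 58 were higher by at least 0.32 log2 units and 0 lower, beside 6.44% and 6.93% of all kept probes. In both dyes 51 were higher and 0 lower, where 62.1% of all kept probes had 1 sign in both, higher and lower pooled. The median change of these histones was 0.30 ± 0.05, against -0.015 over all kept probes. The 9 factor genes, by the same choice of probe, had a median of -0.082 ± 0.16 and ran from -0.40 to 0.32. Among 7 replication-independent histone genes, whose mRNAs are polyadenylated, 0 passed this step and the median was -0.017 ± 0.053. Of 18 S phase genes such as MCM2, PCNA and RRM2 0 passed in either direction, with a median of 0.016 ± 0.008. The labelling kit primes on poly(A), which most replication-dependent histone mRNAs lack, and near-identical histone genes can share probe signal, so these histone values read the fraction of transcripts that was labelled.

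In the IP, the replication-dependent histones had a median change of 0.15 ± 0.08. Of the 58, 7 were past the step upward and 0 downward, beside 5.99% and 5.26% of all kept probes. Their log2 IP/T in EV cells had a median of -0.32 ± 0.14, against -0.16 over all kept probes. Of the 58 genes 0 were enriched 2-fold and 10 depleted, beside 17.5% and 19% of all kept probes. The IP/T ratio of these histones was lower in sponge cells by a median of -0.17 ± 0.02. In both orientations 40 of 58 were lower and 4 higher, where 64.0% of all kept probes had 1 sign in both, higher and lower pooled. Past the step 3 of the histones were lower and 0 higher, beside 6.32% and 8.95% of all kept probes. The factors' gene median for the same quantity was 0.18 ± 0.12, of opposite sign. That sign is not settled, since the median over the kept member probes was -0.041 after normexp, loess and Aquantile. S phase genes had 0.15 ± 0.01 and replication-independent histones 0.13 ± 0.02, near the factors. The pathway lists described below lay lower, at -0.11 ± 0.02 for the histone locus body and -0.012 ± 0.02 for U7 and 3′ end formation. Polyadenylation had 0.035 ± 0.07, and translation and decay of histone mRNA had 0.069 ± 0.11.

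**Figure D4:**
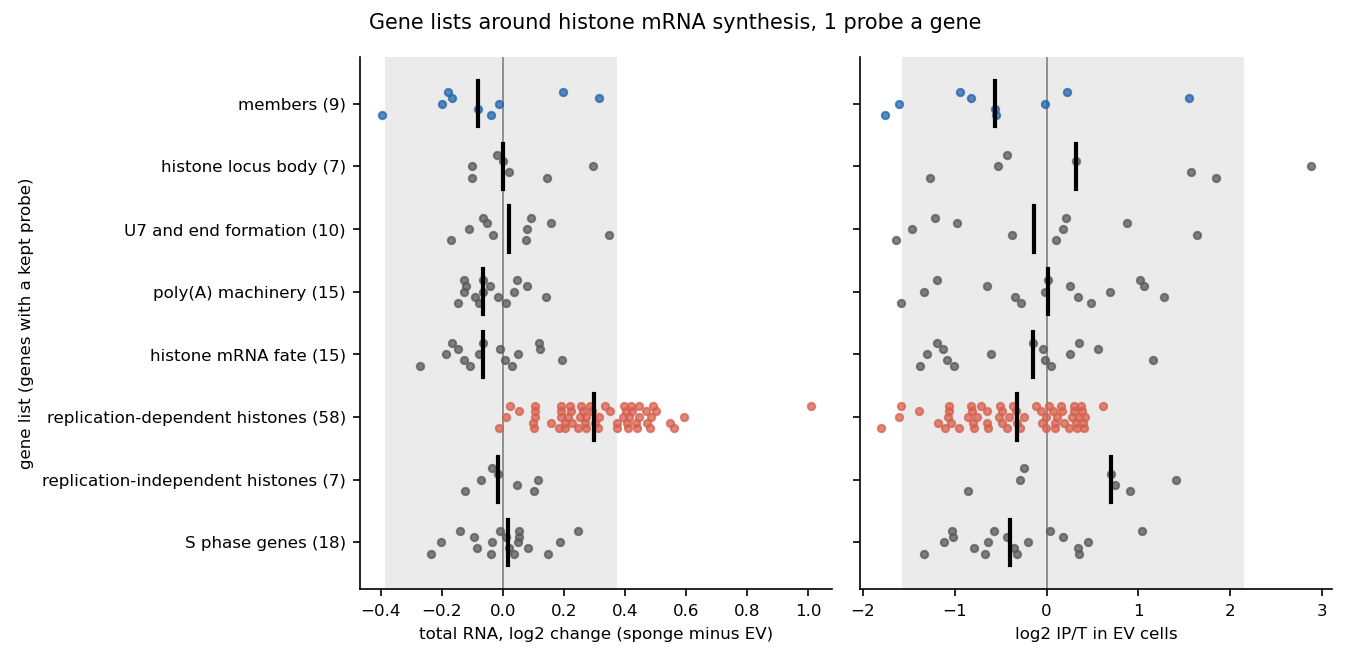
Change in T from EV to sponge cells (left) and log2 IP/T in EV cells (right) for the 9 factor genes, for lists of pathway genes and for histone and S phase genes, with 1 point a gene, its brightest kept probe. Numbers in brackets are genes with a kept probe, black bars are medians, and grey bands run from the 5th to the 95th percentile of all kept probes. The replication-dependent histones lie to the right in T, with a median of 0.30, while the other lists have medians between -0.082 and 0.022.

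The wider pathway was described by 49 further genes in 4 lists, of which 47 had a kept probe. In T, by the brightest kept probe of each gene, 1 of the 47 was higher by at least 0.32 log2 units and 0 were lower. All kept probes had 6.44% and 6.93% there. In IP 0 passed in either direction, beside 5.99% higher and 5.26% lower. The one that passed in T was MBLAC1 (A_24_P221198), a nuclease of histone pre-mRNA, with 0.35 ± 0.10 in T, 0.26 ± 0.008 in IP and a log2 IP/T in EV cells of -1.64 ± 0.08. The median change in T was 0.0008 for the histone locus body list, 0.022 for U7 and 3′ end formation, -0.064 for polyadenylation and -0.064 for translation and decay of histone mRNA. In EV cells 8 of the 47 were enriched at least 2-fold in the IP and 13 depleted, beside 17.5% and 19% of all kept probes, and in sponge cells 7 and 10, beside 17.5% and 17.8%.

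Of the genes that act beside NPAT, HINFP (A_23_P13176), an activator of histone H4 genes, had a change in T of -0.019 ± 0.05 and a log2 IP/T in EV cells of -0.43 ± 0.16. COIL (A_23_P26729), the coilin of Cajal bodies, had 0.15 ± 0.04 in T and an IP/T of 1.85 ± 0.06 in EV and 1.74 ± 0.03 in sponge cells. COIL was thus enriched in the IP as NPAT was, in both populations. Its mean log2 T signals were low, 7.58 in EV and 7.73 in sponge cells, beside 7.58 and 7.40 at NPAT A_23_P203013. The COIL ratio under other normalisations was not analysed here.

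ZNF473, a zinc finger protein of the U7 complex, had 2 kept probes with ratios of opposite sign. At A_23_P107942, the brighter one that enters the counts, its log2 IP/T in EV cells was -0.38 ± 0.05 and its change in T was -0.053 ± 0.063. At A_24_P941376 the IP/T was 0.79 ± 0.04 and the change in T was -0.42 ± 0.24, with -0.25 in Cy3 and -0.59 in Cy5, past the step downward. ERI1, the exonuclease that trims the histone stem-loop, also had 2 probes. In EV cells the log2 IP/T of ERI1 was 0.56 ± 0.04 at A_23_P123463 and 0.48 ± 0.06 at A_23_P123466, and changes in T of -0.27 ± 0.19 (-0.14 in Cy3 and -0.41 in Cy5) and -0.28 ± 0.08. The probes of ERI1 differed by less than 0.1 in both quantities.

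In the change of IP/T, 5 of the 47 pathway genes were higher in sponge cells by at least 0.32 log2 units and 0 lower, beside the 8.95% and 6.32% of all kept probes given above. The count of 5 is near its share, and no shift of the pathway is read from it. These genes were named after their values were seen, and their values under other normalisations were not analysed here. SNRPB, an Sm protein of snRNPs, had 0.46 ± 0.18, MIF4GD, which binds SLBP in histone mRNA translation, had 0.41 ± 0.10, LSM2 and LSM4, subunits of the LSM ring that binds mRNA for decay, had 0.39 ± 0.12 and 0.33 ± 0.19, and TUT7, a uridylyl transferase, had 0.35 ± 0.36.

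The kept probes whose pattern over the 4 RNA samples was nearest to that of SLBP included those of SNX27 (A_24_P233960) and DHX9 (A_24_P36847), at Euclidean distances of 0.017 and 0.018 log2 units after centring each probe on its own mean. With 4 points this measure separates little, and 215 kept probes were nearer to SLBP than 0.11, the dye SDs of SLBP in the 4 RNA samples combined as the root of their summed squares.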

How the data were processed

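Total and Ago2-IP RNA of EV and sponge cells was hybridised by the authors to Agilent 44K two-colour arrays. Per the file headers, the intensity of each spot was background-subtracted and dye-corrected in Feature Extraction 10.7.3.1 (the labels name 10.5.1.1). Each of 4 arrays was deposited under both of its samples, and the channel of a sample's own dye was used. A deposited table of the authors' log2 values had the same rank order as those channels and a median distance of at most 0.003 from the values used here.

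Quantile normalisation, filters and averaging over dyes followed the study's methods. Control and outlier spots were left out, log2 signals of a probe averaged, and 22470 of 41000 probes kept: 25827 were well above background in at least 4 of 8 channels, and 3357 of them were removed because Cy3 and Cy5 differed by over 2-fold in an RNA. Another 60 probes lacked a channel. No spot was saturated. Precision is limited by how few arrays there are. Probes were named by accession through RefSeq's GRCh38.p14 gene table, used for names only since the array annotation follows hg18, and 15626 kept probes received a symbol, for 11203 genes. Normalisation used limma 3.58.1 under R 4.3.3, and normexp had an offset of 50. A probe passed a fold (2 for IP/T, for changes 2 or a smaller step of 0.32 log2 units) if its mean did and both dyes or orientations had 1 sign. With 1 RNA sample per group no test was run. The step that counts probes past a fold was tested on simulated data.

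Members and gene lists were chosen with earlier results of these data known. All member probes are described, HINFP, ZNF473, COIL, ERI1 and MBLAC1 were always named, and other pathway genes only if their change in T or IP passed that step, up to 6, which added 0. Those named for a change in IP/T were chosen after their values were seen. Alternatives were other normalisations, single dyes or orientations, and other filters. One gene among those most like SLBP is not reported here.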

Additional observations from a re-analysis of the deposited data

Results flagged for a closer look

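Of the kept member probes 3 moved in opposite directions in the 2 fractions, lower in sponge T and higher in sponge IP in both dyes, and the difference between fractions was not tested. SLBP (A_23_P7101) changed by -0.10 in Cy3 and -0.26 in Cy5 in T, and by 0.068 and 0.096 in IP. LSM10 (A_24_P216681) changed by -0.16 and -0.18 in T, and by 0.13 and 0.22 in IP. CSTF2 (A_23_P148372) changed by -0.077 and -0.087 in T, and by 0.14 and 0.056 in IP. Among all kept probes 2076 (9.24%) had this pattern and 1214 (5.40%) had the reverse, which 0 member probes had.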

How the results depend on the processing

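The counts of member probes depleted at least 2-fold from the IP were 2 in each population under all 12 alternatives that gave a count. After normexp, loess and Aquantile the probes enriched at least 2-fold were 1 in EV and 1 in sponge cells, the counts past 0.32 log2 units downward in T and upward in IP/T change were 0, the member median of IP/T in EV cells was -0.32 and that of the IP/T change was -0.041, where the median IP/T of all kept probes moved to 0.0082 in both populations. With normexp and quantile normalisation the enriched probes were 0 in EV and 1 in sponge cells, the counts in T and in IP/T change were 0, and the medians were -0.39 and 0.033. Across alternatives, log2 IP/T in EV cells ran from 0.64 to 1.94 for NPAT A_23_P203013, 0.94 to 1.92 for NPAT A_24_P273823 and 0.84 to 2.61 for LSM11 A_23_P368195. With Cy3 alone the member medians were 0.072 in T, -0.026 in IP, -0.47 and -0.48 for IP/T in EV and sponge cells and 0.028 for its change, which 0 probes passed upward and 1 downward. With Cy5 alone 1 probe was higher and 3 lower in T, and 5 passed upward in IP/T change. In arrays with IP in Cy5 the median was 0.072 in T and -0.42 for IP/T in sponge cells. In those with IP in Cy3, 1 probe was higher and 3 lower in T, the IP median was -0.026, and 4 passed upward and 1 downward in IP/T change. A single dye or orientation asks for no shared sign, so these counts come from a looser rule. The share of all kept probes that pass it was not analysed here. With Cy5 alone the median over all kept probes was -0.0345 in T and 0.053 in IP/T change. Detection in all 8 channels gave -0.46 for IP/T in sponge cells. A dye limit of 1.5-fold kept 8 member probes, with 0 lower in T, 1 enriched in each population and IP/T medians of -0.69 and -0.63. The cause of these shifts was not tested. The median change of replication-dependent histones in T stayed between 0.26 and 0.35. Naming probes through a gene name column was not run, as the files used here hold none. No paired analysis was possible because each group holds 1 RNA sample and the 2 dyes are technical.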
